A study of Mus musculus with 6 samples.

Results

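The genes described here are the potassium channel genes of the mouse, taken as every probe set whose only gene symbol starts with Kcn, apart from Kcnj12, Kcnj13 and Kcne2, which the rule leaves out. Each gene was represented by whichever of its probe sets had the highest mean across the 6 arrays. The rule gave 81 genes, measured by 164 probe sets, among 18193 genes in all. They are channel subunits and channel partners, together with 3 noncoding RNAs that carry a channel's name (Kcnq1ot1, Kcnmb4os1 and Kcnmb4os2). None of the 3 noncoding RNAs encodes a subunit.

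Gene expression was measured in the hippocampus on 6 Affymetrix arrays, 1 per mouse. Of these mice 3 were Dp(11)17/+ heterozygotes, in which a segment of chromosome 11 is present in an additional copy on one homologue, and 3 were +/+ wild types. All 6 are labelled as males aged 11 to 14 weeks on the C57BL/6-Tyr c-Brd background, and the title of the series calls the line a mouse model for Potocki-Lupski syndrome, which in humans arises when the corresponding region is duplicated. The extraction protocol lists other organs and not hippocampus, the labelling protocol speaks of pools, and the sample records name 1 individual each.

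Potassium channels are pores that let potassium leave the cell, or in some families enter it, and so set the resting potential, end the action potential and limit repetitive firing. Most are assembled from several pore-forming subunits, and many work with cytoplasmic or membrane partners that change their gating or their place on the membrane. In the hippocampus, A-type channels of the Kcnd family are known for holding back excitation in dendrites, Kcnq channels for the M current, and Kcnj channels for the slow inhibition that follows activation of G protein-coupled receptors.

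Values are the authors' log2 signals. The array medians lay between 3.74 and 3.79. Signals of different probe sets differ in their own binding, so levels are given for each gene and are not ranked between genes. A mean log2 signal of 6 or more over the 6 arrays is used as the floor above which a gene is called well measured. Of the 81 genes, 30 lay at or above it, or 37%, against 39% of all genes.

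Of the 6 arrays, 1 went against its label for sex, and the Dp(11)17/+ mice differed from each other in markers of brain regions. Dp(11)17/+ mouse 1, labelled male, had a log2 signal of 9.13 for Xist, the RNA of the inactive X chromosome, against 3.06 to 3.69 in the other 5 mice, and 2.48 for the Y-linked gene Eif2s3y, against 5.41 to 6.01. All 8 measured CA1 markers lay at or above the floor, and 6 of 12 markers of dentate granule cells did. The mean over 13 striatal markers was 6.48, 5.17 and 7.27 in Dp(11)17/+ mice 1, 2 and 3, against 5.11 to 5.75 in +/+ mice, with 13 of 13 higher by group mean in the Dp(11)17/+ mice and 7 below the floor. Over 19 markers of thalamus and habenula it was 5.01, 4.83 and 6.83, against 4.78 to 5.14, with 18 of 19 higher and 11 below the floor. Over the 8 CA1 markers it was 7.21, 8.19 and 6.30, against 7.74 to 8.18, with 8 of 8 lower. Over the 12 dentate markers it was 5.44, 6.84 and 4.85, against 6.03 to 6.40, with 10 of 12 lower. None of these markers passed the test after adjustment. For the actin controls of the array, the 3' signal exceeded the 5' signal by 1.69, 1.47 and 1.74 in the Dp(11)17/+ mice, against 1.45 to 1.63 in +/+ mice. For the GAPDH controls the excess was 0.47, 0.33 and 0.44 in the Dp(11)17/+ mice, against 0.37 to 0.57 in +/+ mice. In both controls the groups overlapped. In tissue RNA, fewer cells of a type and less RNA per cell cannot be told apart.

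The first question was whether potassium channel genes differ between Dp(11)17/+ and +/+ hippocampus. None of them passed the test. Limma, adjusted by Benjamini-Hochberg over all 45037 probe sets, called 0 of the 81 genes, where the lowest adjusted p was 0.994, and 0 of all 18193 genes, a background of 0%. At an unadjusted p under 0.05 it gave 0 of the 81 genes as well, against a background of 3.17% of all genes, and the plain equal-variance statistic also gave 0 by either count. Of the 81 genes, 40 had a positive and 41 a negative log2 fold change, and the median was -0.01, with a median of -0.02 over all genes. The interquartile range ran from -0.09 to 0.11. The groups did not overlap for 1 gene, Kcnd1, against a background of 8.29% of all genes.

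How large a difference these data leave room for varied between genes. The 95% confidence interval of the log2 fold change lay inside a 1.5-fold difference in both directions for 51 of the 81 genes. Over all genes it did so for 15575 of 18193. The interval reached a 1.5-fold higher level for 21 genes and a 1.5-fold lower level for 14, with some genes in both counts. Of all 18193 genes, 1522 and 1500 did so. Among the 30 genes above the floor, 12 intervals lay inside 1.5-fold, against 5873 of all 7104 genes above the floor. The other 39 intervals inside 1.5-fold were those of genes below the floor, which are not called well measured. The median distance from the estimate to either end of the interval was 0.47 on the log2 scale for the 30 genes above the floor. For all genes above the floor it was 0.26.

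**Figure D1:**
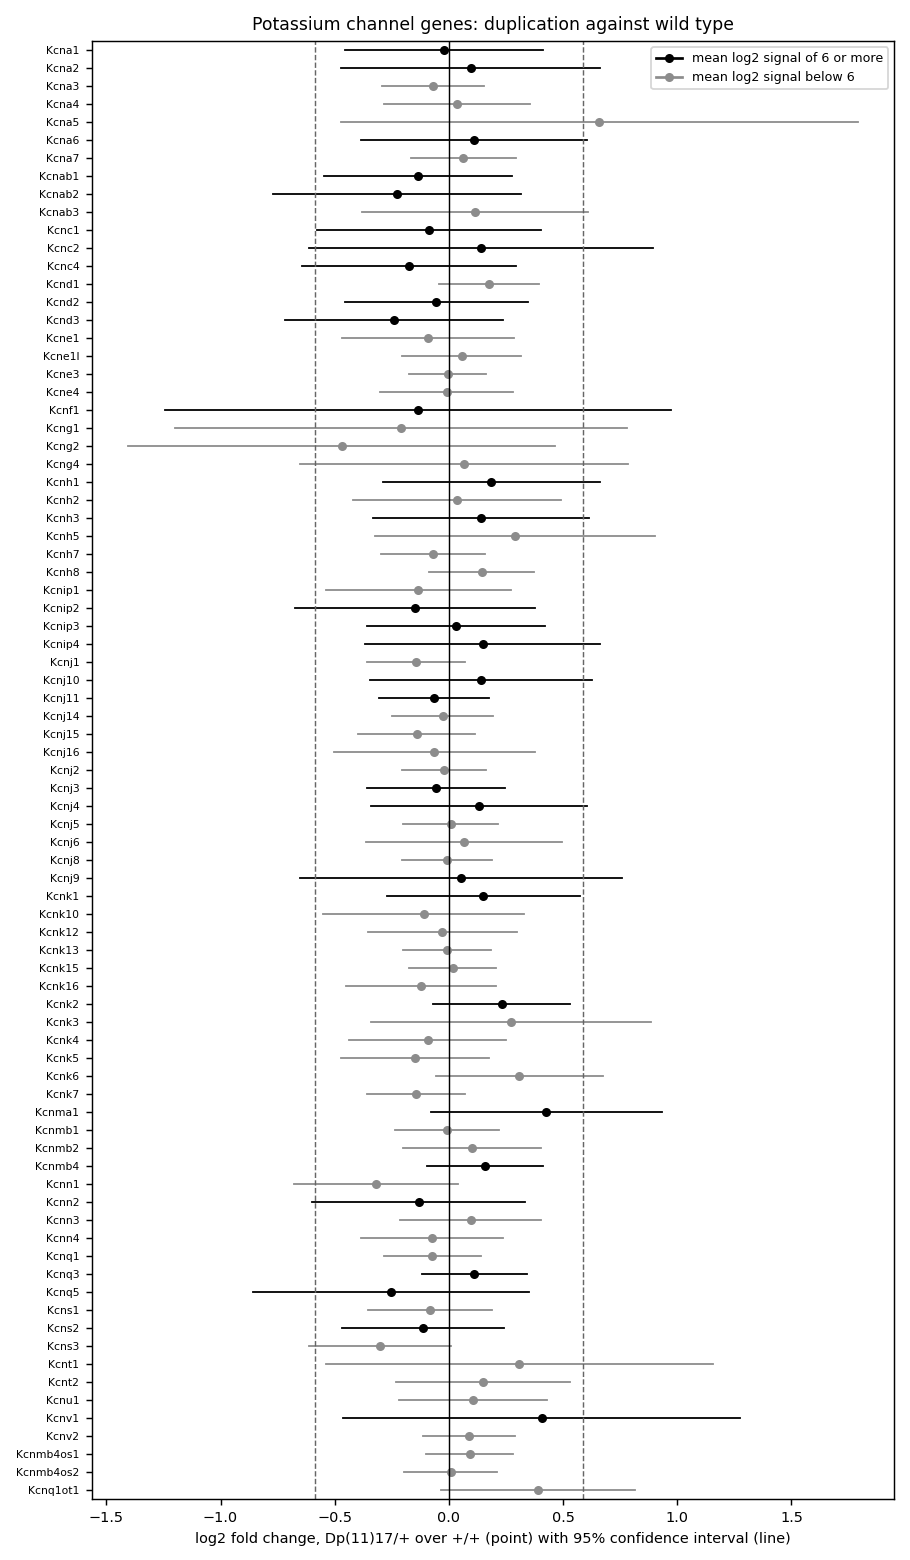
Log2 fold change of Dp(11)17/+ over +/+ mice (points, x axis) with its 95% confidence interval (lines) for the 81 potassium channel genes, in order of family down the page, with noncoding RNAs last. Black marks genes with a mean log2 signal of 6 or more and grey those below it, dashed lines stand at a 1.5-fold difference, and every interval holds 0.

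None of the 81 genes lies in the duplicated segment, taken from Cops3 to Rnf112 in the gene order of chromosome 11. This count does not cover Kcnj12, Kcnj13 and Kcne2, which the rule leaves out. It therefore does not show that the segment holds no potassium channel gene. On that chromosome 5 of the genes are found outside it, namely Kcnab3, Kcnip1, Kcnmb1, Kcnj16 and Kcnj2. Their log2 fold changes ran from -0.13 for Kcnip1 to 0.11 for Kcnab3, and all 5 lay below the floor.

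Among voltage-gated families, the Kcna genes encode Shaker-type subunits, which sit largely on axons. Kcna1, Kcna2 and Kcna6 lay above the floor, and Kcna3, Kcna4, Kcna5 and Kcna7 below it. Kcna1 had log2 signals of 9.03, 9.45 and 9.63 in Dp(11)17/+ mice 1, 2 and 3, against 9.55, 9.12 and 9.52 in +/+ mice 1, 2 and 3. The range of the Dp(11)17/+ mice enclosed that of the +/+ mice, and the log2 fold change was -0.02 (SE 0.18). Kcna2 had log2 signals of 7.53, 7.43 and 8.36 in Dp(11)17/+ mice 1, 2 and 3, against 7.83, 7.55 and 7.65 in +/+ mice 1, 2 and 3. For Kcna2, Dp(11)17/+ mouse 3 lay above all other mice and the other Dp(11)17/+ mice below all +/+ mice, with a log2 fold change of 0.09 (SE 0.24). Kcna6 had log2 signals of 6.997, 6.18 and 6.91 in Dp(11)17/+ mice 1, 2 and 3, against 6.49, 6.68 and 6.59 in +/+ mice 1, 2 and 3. Here mice 1 and 3 of the duplication group lay above the +/+ mice and mouse 2 below them. The fold change with the greatest size of all 81 genes was that of Kcna5, best known from heart and vessel muscle, at 0.66 (SE 0.48), on signals of 3.44 to 5.30 in Dp(11)17/+ and 3.43 to 4.44 in +/+ mice, which overlap. It was 0.23 without Dp(11)17/+ mouse 1 and 1.17 without mouse 2, and without mouse 1 the gene with the greatest size was Kcng1, at -0.69.

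The Kcnc genes encode Shaw-type subunits that open and close fast and allow firing at high rates. All 3 measured genes lay above the floor. Kcnc2 had log2 signals of 7.98, 7.97 and 9.11 in Dp(11)17/+ mice 1, 2 and 3, against 8.07, 8.01 and 8.55 in +/+ mice 1, 2 and 3. Highest was Dp(11)17/+ mouse 3, the mouse with the high thalamic and striatal marker means, and the part of those markers in this value was not tested. The log2 fold change was 0.14 (SE 0.32), and without that mouse it was -0.24. Kcnc1 had log2 signals of 7.71, 7.94 and 8.57 in Dp(11)17/+ mice 1, 2 and 3, against 8.27, 8.09 and 8.12 in +/+ mice 1, 2 and 3. The duplication group lay on both sides of the +/+ mice. Kcnc4, an inactivating member, had signals of 7.74, 6.91 and 7.32 in the Dp(11)17/+ mice, against 7.37, 7.56 and 7.56 in the +/+ mice, and a log2 fold change of -0.17 (SE 0.20). The lowest of the 6 mice for Kcnc4 was Dp(11)17/+ mouse 2.

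The Kcnd genes encode the Shal-type pore of the dendritic A current. Kcnd2 had log2 signals of 8.31, 9.01 and 8.73 in Dp(11)17/+ mice 1, 2 and 3, against 8.74, 8.73 and 8.75 in +/+ mice 1, 2 and 3. In this probe set the SD was 0.36 over the Dp(11)17/+ mice and 0.0094 over the +/+ mice. The Dp(11)17/+ mice lay on both sides of the +/+ mice, at a log2 fold change of -0.06 (SE 0.17). The other 3 probe sets of Kcnd2 had the opposite sign, at 0.09 to 0.51. The brightest of them had 7.52, 7.90 and 7.50 in Dp(11)17/+ mice, against 7.57, 7.61 and 6.19 in +/+ mice. There the wider spread was that of the +/+ mice. Kcnd3 had signals of 7.66, 7.08 and 7.06 in the Dp(11)17/+ mice, against 7.19, 7.63 and 7.71 in the +/+ mice, and a log2 fold change of -0.24 (SE 0.20). The sign held in all 17 alternative settings, but the other 3 probe sets of Kcnd3, all with a mean below 4, had the opposite sign, at 0.03 to 0.07. Kcnd1 lay below the floor, at 5.43 ± 0.11 in Dp(11)17/+ and 5.26 ± 0.086 in +/+ mice (SD, n = 3 each). It was the gene whose groups did not overlap, with signals of 5.56, 5.36 and 5.38 in Dp(11)17/+ mice against 5.16, 5.30 and 5.32 in +/+ mice. Its log2 fold change was 0.18 (SE 0.09) (unadjusted p = 0.0975). In its dimmer probe sets, with means of 3.41 and 3.13, the groups overlapped, at log2 fold changes of 0.09 and -0.02.

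**Figure D2:**
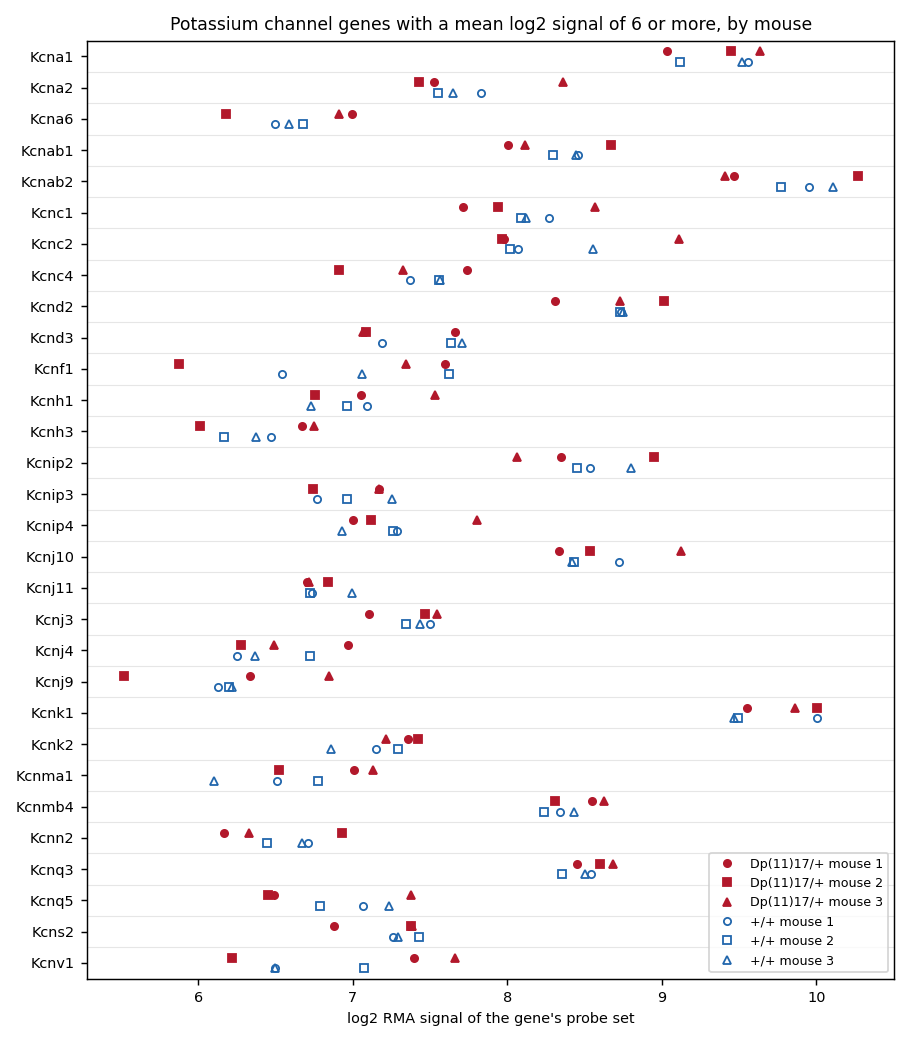
Log2 signal (x axis) of each of the 30 potassium channel genes with a mean of 6 or more, with 1 filled red symbol for each of 3 Dp(11)17/+ mice above 1 open blue symbol for each of 3 +/+ mice. In none of the 30 genes do the groups separate, and in many the red symbols lie on both sides of the blue ones, as for Kcnj9 and Kcnd2.

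Partners of these channels were measured beside their pores. The Kcnab genes encode cytoplasmic beta subunits of Shaker-type channels. Kcnab2 had log2 signals of 9.47, 10.27 and 9.41 in Dp(11)17/+ mice 1, 2 and 3, against 9.95, 9.77 and 10.11 in +/+ mice 1, 2 and 3. Dp(11)17/+ mouse 2 stood above the +/+ mice and mice 1 and 3 below them, and the log2 fold change was -0.23 (SE 0.23). Kcnab1 had log2 signals of 8.01, 8.67 and 8.11 in Dp(11)17/+ mice 1, 2 and 3, against 8.46, 8.29 and 8.45 in +/+ mice 1, 2 and 3. The mice fell in the same arrangement for Kcnab1. Kcnab3 lay below the floor, with a mean of 4.86. The Kcnip genes encode calcium-binding partners of the Kcnd pore, and Kcnip3 is also known as a repressor of transcription. Kcnip2 had log2 signals of 8.34, 8.95 and 8.06 in Dp(11)17/+ mice 1, 2 and 3, against 8.54, 8.45 and 8.80 in +/+ mice 1, 2 and 3. Again Dp(11)17/+ mouse 2 was highest and mice 1 and 3 lowest. Kcnip4 had log2 signals of 7.0, 7.12 and 7.80 in Dp(11)17/+ mice 1, 2 and 3, against 7.29, 7.26 and 6.93 in +/+ mice 1, 2 and 3. Kcnip4 was highest in Dp(11)17/+ mouse 3, and its log2 fold change was 0.15 (SE 0.22). Kcnip3 had signals of 7.17, 6.74 and 7.17 in the Dp(11)17/+ mice, against 6.77, 6.96 and 7.25 in the +/+ mice, and a log2 fold change of 0.03 (SE 0.17). Kcnip1, an interneuron-rich member, had a mean of 5.58 and a log2 fold change of -0.13 (SE 0.17). The 4 Kcne genes, small single-span partners, all lay below the floor, with means between 2.59 and 4.72, the latter that of Kcne4. Their log2 fold changes lay between -0.09 and 0.06.

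The Kcnf, Kcng, Kcns and Kcnv genes encode subunits that form no channel alone and modify pores of the Kcnb family when they join them. No Kcnb gene was analysed here. Kcnf1 had log2 signals of 7.60, 5.88 and 7.34 in Dp(11)17/+ mice 1, 2 and 3, against 6.55, 7.62 and 7.06 in +/+ mice 1, 2 and 3. Kcnf1 had the highest SD in either group among the 30 genes above the floor, 0.93 in Dp(11)17/+ and 0.54 in +/+ mice. Kcnv1 had log2 signals of 7.40, 6.22 and 7.66 in Dp(11)17/+ mice 1, 2 and 3, against 6.50, 7.07 and 6.50 in +/+ mice 1, 2 and 3. For Kcnv1, Dp(11)17/+ mice 1 and 3 lay above all +/+ mice and mouse 2 below them, and the log2 fold change was 0.41 (SE 0.37), or 0.12 without mouse 3. Kcns2 had signals of 6.88, 7.38 and 7.39 in the Dp(11)17/+ mice, against 7.26, 7.43 and 7.29 in the +/+ mice, and a log2 fold change of -0.11 (SE 0.15). Kcns3, below the floor, had the smallest unadjusted p of all 81 genes, 0.0556, with a log2 fold change of -0.30 (SE 0.13). Kcns3 had log2 signals of 3.97, 4.26 and 4.13 in Dp(11)17/+ mice 1, 2 and 3, against 4.38, 4.23 and 4.65 in +/+ mice 1, 2 and 3. The groups overlapped, and over the 15 alternative settings with a test its unadjusted p ran from 0.026 to 0.173. Kcng1 and Kcng2 had means of 5.79 and 5.54 and log2 fold changes of -0.21 (SE 0.42) and -0.47 (SE 0.40). Without Dp(11)17/+ mouse 3 these were 0.16 for Kcng1 and -0.06 for Kcng2, without mouse 1 -0.69 and -0.42, and without mouse 2 -0.10 and -0.93. Kcng4, Kcns1 and Kcnv2 had means of 3.86, 4.21 and 2.78 and log2 fold changes between -0.08 for Kcns1 and 0.09 for Kcnv2.

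The Kcnh genes encode the ether-a-go-go channels and the Kcnq genes the slow channels of the M current. Kcnh1 had signals of 7.05, 6.75 and 7.53 in the Dp(11)17/+ mice, against 7.09, 6.96 and 6.73 in the +/+ mice, and a log2 fold change of 0.18 (SE 0.20). Kcnh3, a forebrain member, had signals of 6.67, 6.01 and 6.75 in the Dp(11)17/+ mice, against 6.47, 6.17 and 6.38 in the +/+ mice, and a log2 fold change of 0.14 (SE 0.20). Kcnh2, best known for repolarising the heart, lay just under the floor, with a mean of 5.98 and a log2 fold change of 0.04 (SE 0.19). Kcnh5, Kcnh7 and Kcnh8 had means between 2.66 and 3.64. Kcnh5 had a log2 fold change of 0.29 (SE 0.26), which was -0.02 without Dp(11)17/+ mouse 3, and Kcnh8 one of 0.14 (SE 0.10). Kcnq3 had log2 signals of 8.45, 8.60 and 8.68 in Dp(11)17/+ mice 1, 2 and 3, against 8.54, 8.35 and 8.50 in +/+ mice 1, 2 and 3. The Kcnq3 groups overlapped at a log2 fold change of 0.11 (SE 0.10), and the interval, -0.12 to 0.34, lay inside 1.5-fold. Kcnq5 had log2 signals of 6.49, 6.45 and 7.38 in Dp(11)17/+ mice 1, 2 and 3, against 7.06, 6.79 and 7.23 in +/+ mice 1, 2 and 3. Dp(11)17/+ mice 1 and 2 were the lowest for Kcnq5 and mouse 3 the highest. The log2 fold change was -0.25 (SE 0.26) and, without Dp(11)17/+ mouse 3, -0.55. The dimmer probe sets of Kcnq5, with means of 5.06 and 3.37, had the opposite sign, at 0.004 and 0.20. Kcnq1, known from heart and inner ear, had a mean of 3.35.

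Channels opened by internal calcium or sodium include Kcnma1, the pore of the large-conductance BK channel. Kcnma1 had log2 signals of 7.01, 6.52 and 7.13 in Dp(11)17/+ mice 1, 2 and 3, against 6.51, 6.77 and 6.10 in +/+ mice 1, 2 and 3. Dp(11)17/+ mice 1 and 3 lay above all +/+ mice and mouse 2 inside their range. The log2 fold change was 0.43 (SE 0.21), or 1.34-fold (unadjusted p = 0.0865), and it was 0.31 without Dp(11)17/+ mouse 3, 0.37 without mouse 1 and 0.06 with mouse 2 as the only Dp(11)17/+ mouse. All 5 probe sets of Kcnma1 had a positive fold change, from 0.25 to 0.63, and 2 of them had an unadjusted p under 0.05, neither called after adjustment. The mice with the high Kcnma1 signals, Dp(11)17/+ mice 1 and 3, had striatal marker means of 6.48 and 7.27, against 5.11 to 5.75 in +/+ mice. The part of those markers was not tested. Kcnmb4 had log2 signals of 8.55, 8.31 and 8.63 in Dp(11)17/+ mice 1, 2 and 3, against 8.34, 8.24 and 8.43 in +/+ mice 1, 2 and 3. Kcnmb4 is the brain beta subunit of the same channel, and its log2 fold change was 0.16 (SE 0.11). Kcnmb1, of smooth muscle, and Kcnmb2 had means of 2.90 and 4.41. Among the small-conductance SK channels, which contribute to the pause after a burst of firing, Kcnn2 had signals of 6.17, 6.93 and 6.33 in the Dp(11)17/+ mice, against 6.71, 6.44 and 6.67 in the +/+ mice, and a log2 fold change of -0.13 (SE 0.20). Kcnn1, below the floor, had a log2 fold change of -0.32 (SE 0.15) (unadjusted p = 0.0737), and its dimmer probe set had 0.04. Kcnn3 and Kcnn4 had means of 3.47 and 3.65. Kcnt1 and Kcnt2, opened by sodium, had means of 5.49 and 5.65 and log2 fold changes of 0.31 (SE 0.36) and 0.15 (SE 0.16). Without Dp(11)17/+ mouse 3 both were -0.04. Kcnu1, the sperm channel, had a mean of 4.09 and a log2 fold change of 0.10 (SE 0.14).

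The inward rectifiers, the Kcnj genes, gave 13 measured genes, of which 5 lay above the floor. Kcnj10 encodes the channel through which astrocytes take up potassium. Kcnj10 had log2 signals of 8.33, 8.53 and 9.13 in Dp(11)17/+ mice 1, 2 and 3, against 8.72, 8.43 and 8.42 in +/+ mice 1, 2 and 3. The highest signal was that of Dp(11)17/+ mouse 3, and the log2 fold change was 0.14 (SE 0.21). The mean over 8 astrocyte markers was 9.52, 9.47 and 9.29 in the Dp(11)17/+ mice, against 9.36, 9.39 and 9.28 in +/+ mice, with 7 of the 8 higher by group mean in the Dp(11)17/+ mice. Gfap, the one that was lower, had 8.32 in mouse 3, against 9.46 to 9.59 in +/+ mice, and the part of the astrocyte markers in the Kcnj10 value was not tested. The mean over 7 oligodendrocyte markers was 10.24 in that mouse, against 9.40 to 9.98 in +/+ mice, and their part was not tested either. Kcnj3 and Kcnj9 encode subunits of the channels opened by G proteins. Kcnj3 had log2 signals of 7.10, 7.46 and 7.54 in Dp(11)17/+ mice 1, 2 and 3, against 7.50, 7.35 and 7.43 in +/+ mice 1, 2 and 3. Kcnj9 had log2 signals of 6.33, 5.52 and 6.85 in Dp(11)17/+ mice 1, 2 and 3, against 6.13, 6.20 and 6.22 in +/+ mice 1, 2 and 3. The +/+ mice were close together for Kcnj9, with an SD of 0.047, and the Dp(11)17/+ mice had an SD of 0.67. Log2 fold changes were -0.06 (SE 0.13) for Kcnj3 and 0.05 (SE 0.30) for Kcnj9. Kcnj5 and Kcnj6, of the same group, had means of 3.24 and 4.24 and log2 fold changes of 0.01 (SE 0.09) and 0.07 (SE 0.18). Kcnj11 encodes the pore of channels that ATP closes. Kcnj11 had log2 signals of 6.71, 6.84 and 6.72 in Dp(11)17/+ mice 1, 2 and 3, against 6.74, 6.72 and 6.998 in +/+ mice 1, 2 and 3. Its interval, -0.31 to 0.18, lay inside 1.5-fold. Kcnj4, a strong rectifier, had signals of 6.97, 6.28 and 6.49 in the Dp(11)17/+ mice, against 6.25, 6.72 and 6.36 in the +/+ mice, and a log2 fold change of 0.13 (SE 0.20). The remaining genes, Kcnj1, Kcnj2, Kcnj8, Kcnj14, Kcnj15 and Kcnj16, had means between 2.59 and 4.23 and log2 fold changes between -0.14 and -0.01. Kcnj1 had -0.14 (SE 0.09) and Kcnj15 -0.14 (SE 0.11).

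The tandem-pore Kcnk channels carry leak current at rest. Of 12 measured genes, 2 lay above the floor. Kcnk1 had log2 signals of 9.55, 10.0003 and 9.86 in Dp(11)17/+ mice 1, 2 and 3, against 10.001, 9.49 and 9.46 in +/+ mice 1, 2 and 3. The Kcnk1 groups overlapped, with a log2 fold change of 0.15 (SE 0.18). Kcnk2 encodes a channel opened by stretch and by lipids. Kcnk2 had log2 signals of 7.36, 7.42 and 7.21 in Dp(11)17/+ mice 1, 2 and 3, against 7.15, 7.30 and 6.86 in +/+ mice 1, 2 and 3. Dp(11)17/+ mice 1 and 2 lay above all +/+ mice and mouse 3 inside their range. The log2 fold change was 0.23 (SE 0.13) (unadjusted p = 0.115), and it was positive in all 17 alternative settings, between 0.11 and 0.33. Kcnk6, below the floor, had a log2 fold change of 0.31 (SE 0.15) (unadjusted p = 0.0849). Kcnk3, an acid-sensitive leak channel, had a signal of 6.15 in Dp(11)17/+ mouse 3, against 5.31 and 5.05 in Dp(11)17/+ mice 1 and 2 and 5.22 to 5.25 in +/+ mice. Its log2 fold change was 0.27 (SE 0.26), and it was -0.05 without mouse 3. The other 8 genes had means between 2.94 and 5.30 and log2 fold changes between -0.15 and 0.02. Of these, Kcnk5 had -0.15 (SE 0.14) and Kcnk7 -0.14 (SE 0.09).

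Among the noncoding RNAs, Kcnq1ot1 is the imprinted antisense transcript of the Kcnq1 locus. Kcnq1ot1 had log2 signals of 5.40, 5.26 and 5.23 in Dp(11)17/+ mice 1, 2 and 3, against 5.27, 4.52 and 4.94 in +/+ mice 1, 2 and 3. The lowest signals were those of +/+ mice 2 and 3, and +/+ mouse 1 fell among the Dp(11)17/+ mice. The log2 fold change was 0.39 (SE 0.18) (unadjusted p = 0.0676), and all 6 probe sets had a positive fold change, from 0.07 to 0.39, with 1 at an unadjusted p under 0.05. Kcnmb4os1 and Kcnmb4os2 had means of 2.81 and 5.16 and log2 fold changes of 0.09 (SE 0.08) and 0.01 (SE 0.09).

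The potassium channel genes above the floor spread widely between the mice of the duplication group. Over the 30 genes above the floor, the median size of the log2 fold change was 0.14. The median SD was 0.40 over the 3 Dp(11)17/+ mice and 0.17 over the 3 +/+ mice. Over all 7104 genes above the floor it was 0.14 and 0.11. For the 51 potassium channel genes below the floor it was 0.136 in Dp(11)17/+ and 0.145 in +/+ mice. The SD was the higher one in the Dp(11)17/+ group for 26 of the 30 genes, or 86.7%, against a background of 60.7% of all genes above the floor. It was over 2 times that of the +/+ group for 19 of the 30, or 63.3%, against a background of 30.4%. These shares describe the genes and were not tested.

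**Figure D3:**
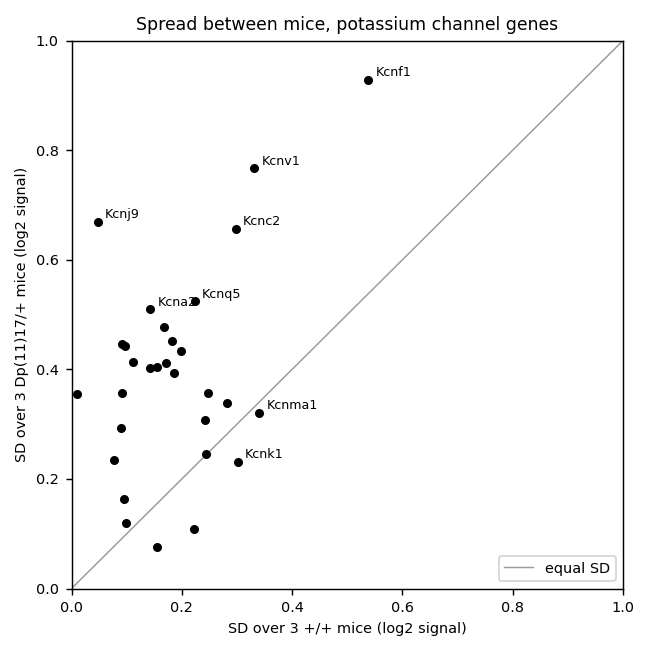
SD of the log2 signal over 3 Dp(11)17/+ mice (y axis) against that over 3 +/+ mice (x axis), 1 point for each of the 30 potassium channel genes with a mean of 6 or more. The line marks equal SD, 26 of the 30 points lie above it, and the labelled genes have an SD over 0.5 in Dp(11)17/+ or over 0.3 in +/+ mice.

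The 3 Dp(11)17/+ mice did not deviate in one direction. Dp(11)17/+ mouse 3 lay outside the range of the +/+ mice for 23 of the 30 genes, 16 of them above it, mouse 1 for 23, 14 of them below it, and mouse 2 for 19, 12 of them below it. The background over all genes above the floor was 62.8% for mouse 3, 54.6% for mouse 1 and 52.7% for mouse 2. For 15 of the 30 genes, or 50%, mouse 2 lay on the other side of the +/+ mean from both mice 1 and 3, against a background of 32% of all genes above the floor. All 3 lay on the same side for 2 genes, or 6.67%, against a background of 33.2%. These 2 genes were Kcnk2 and Kcnma1, with all 3 above the +/+ mean. Farthest above the +/+ mean in mouse 3 were Kcnv1 by 0.97, Kcnc2 by 0.90 and Kcna2 by 0.68 on the log2 scale, and farthest below were Kcnip2, Kcnab2 and Kcnd3, at -0.54, -0.53 and -0.45. In mouse 1 the highest were Kcnv1, Kcnma1 and Kcnj4, at 0.71, 0.55 and 0.52, and the lowest Kcnq5, Kcnab2 and Kcns2, at -0.53, -0.48 and -0.45. In mouse 2 the highest were Kcnip2, Kcnk1 and Kcnn2, at 0.35, 0.35 and 0.32, and the lowest Kcnf1, Kcnj9 and Kcnc4, at -1.20, -0.66 and -0.59. Mice 1 and 3 had striatal marker means above the +/+ mean and CA1 and dentate means below it, and mouse 2 had the opposite sign for these 3 lists. The part of the markers in the values of the channel genes was not tested.

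**Figure D4:**
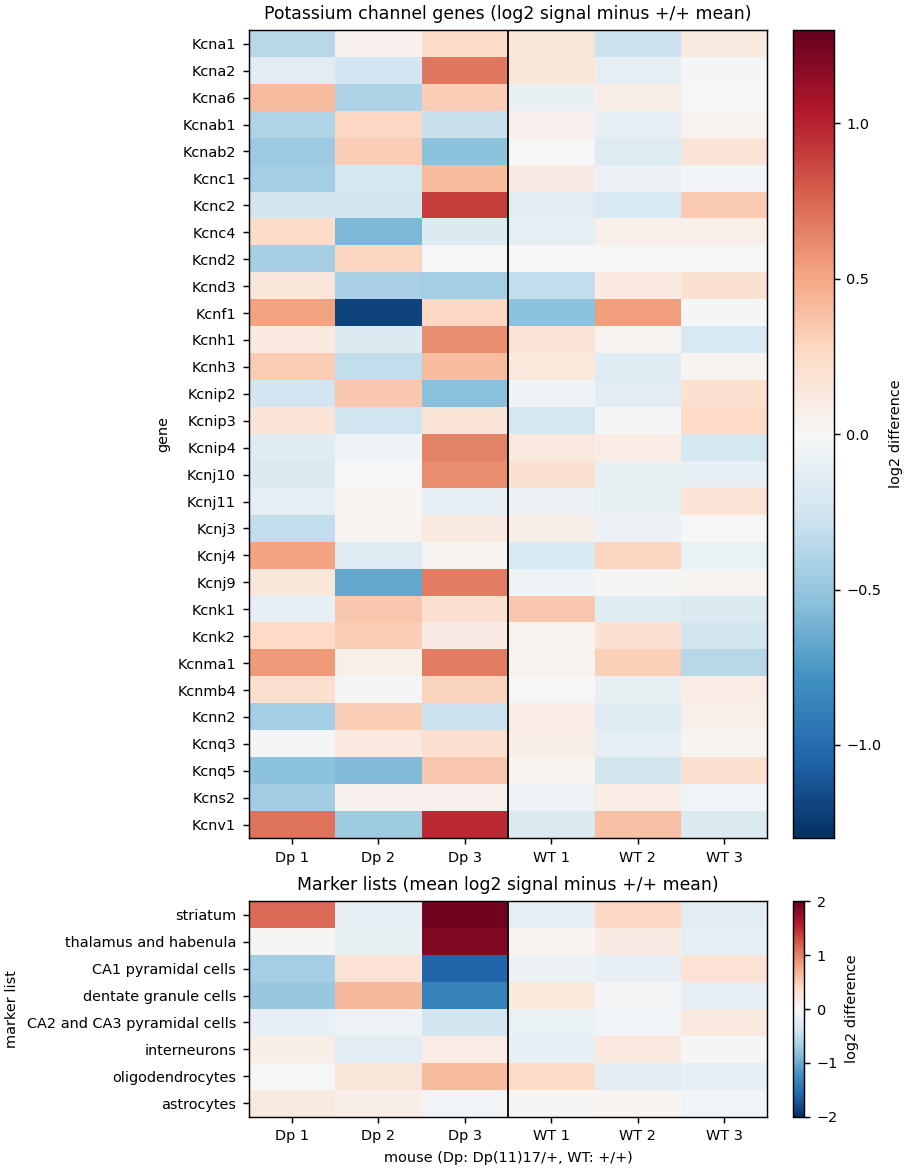
Upper panel, log2 signal minus the mean of the +/+ mice for the 30 potassium channel genes with a mean of 6 or more (rows) in 3 Dp(11)17/+ and 3 +/+ mice (columns). Lower panel, the same for the mean over each of 8 marker lists, on a wider colour scale; red is above and blue below the +/+ mean, and Dp(11)17/+ mice 1 and 3 share red for striatal markers where mouse 2 does not.

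Each comparison was repeated with 1 mouse left out. The log2 fold change of 80 of the 81 genes turned its sign or moved by over 1.5 times in at least 1 of these 6 fits, and for 50 of them the sign turned. A small fold change passes these limits easily, and the same count was not made over all genes. Limma called 0 of the 81 genes after adjustment in each of the 6 fits. At an unadjusted p under 0.05, 16 of the 81 genes, or 19.8%, were counted without Dp(11)17/+ mouse 2, of which 10 were higher and 6 lower in Dp(11)17/+ mice, against a background of 8.15% of all genes in that fit. Those higher were Kcna5, Kcna6, Kcnh3, Kcnj9, Kcnk6, Kcnma1, Kcnmb4, Kcnt1, Kcnu1 and Kcnv1, and those lower were Kcnab1, Kcnab2, Kcng2, Kcnip2, Kcnn2 and Kcns3. These genes were named after their values were seen. The remaining Dp(11)17/+ mice in that fit are those with the marker means and the Xist signal given above. Without Dp(11)17/+ mouse 1 the count was 3 (Kcnc4, Kcnd3 and Kcng1, all lower) against a background of 2.64%, and without mouse 3 it was 3 (Kcnc1, Kcnn1 and Kcnq5, all lower) against 2.15%. Without +/+ mouse 1 the count was 1 (Kcnq1ot1) against 4.93%, without +/+ mouse 2 it was 4 (Kcnk2, Kcnma1, Kcnn1 and Kcns3) against 2.79%, and without +/+ mouse 3 it was 0 against 2.26%.

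Where a gene had several probe sets, these were compared as well. More than 1 probe set was present for 46 of the 81 genes, and for 19 of the 46 the sign of the fold change differed between them. Of all 164 probe sets, 6 had an unadjusted p under 0.05, or 3.66%, against a background of 2.82% of all probe sets. All 6 were dimmer probe sets with a mean log2 signal under 5 (2 of Kcnma1 and 1 each of Kcna2, Kcng1, Kcnj1 and Kcnq1ot1), each with the sign of the gene's brightest probe set, and 0 of the 164 were called after adjustment.

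Other genes of potassium channel biology were set beside the channels. Of 20 measured genes of channel partners such as the Kcnd partner Dpp6 and the Shaker-type partner Lgi1, limma called 0 in either direction, and 0 had an unadjusted p under 0.05, with a median log2 fold change of 0.06. Lgi1 had -0.29 (SE 0.15), Dpp6 -0.22 (SE 0.11) and the axonal adhesion gene Cntn2 0.30 (SE 0.18). In the list of receptors, G proteins and regulators that act on Kcnj3 and its relatives, 0 of 21 genes were called and the median was -0.04. Cnr1, the cannabinoid receptor, had -0.36 (SE 0.23), Gng2 -0.19 (SE 0.14) and the regulator Rgs7bp 0.39 (SE 0.29). Among regulators of the M current, 0 of 10 were called and the median was -0.03. Plcb4, a phospholipase, had a log2 fold change of 0.81 (SE 0.68), on a signal of 9.12 in Dp(11)17/+ mouse 3 against 6.90 and 6.32 in Dp(11)17/+ mice 1 and 2 and 6.04 to 7.01 in +/+ mice. Pip5k1c, a lipid kinase, had 0.22 (SE 0.12) and the muscarinic receptor gene Chrm3 -0.19 (SE 0.13). The sodium pump and cotransporter genes gave 0 of 7 called with a median of -0.0015, and Atp1b2 at 0.15 (SE 0.09), Atp1b1 at -0.08 (SE 0.09) and Slc12a7 at -0.12 (SE 0.15). The pacemaker channels with their partner Pex5l gave 0 of 3 called with a median of -0.05, and Hcn3, Hcn2 and Pex5l at -0.11 (SE 0.13), 0.11 (SE 0.14) and -0.05 (SE 0.23). Of the genes named here, Chrm3, Slc12a7 and Hcn3 lay below the floor, with means of 2.90, 4.22 and 5.27. Each of these lists had 0 genes at an unadjusted p under 0.05, beside the background of 3.17% of all genes.

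Voltage-gated sodium and calcium channel genes, the group most like the potassium channels, gave 0 of 35 called and 1 at an unadjusted p under 0.05, with a median log2 fold change of 0.07. Over their 21 genes above the floor the median SD was 0.32 in Dp(11)17/+ and 0.19 in +/+ mice, beside 0.40 and 0.17 for the potassium channels. The SD was the higher one in the Dp(11)17/+ group for 18 of the 21, or 85.7%, beside 86.7% of the potassium channel genes. Dp(11)17/+ mouse 2 lay on the other side of the +/+ mean from mice 1 and 3 for 12 of the 21, or 57.1%, beside 50% of the potassium channel genes, and all 3 lay on the same side for 3, or 14.3%, beside 6.67%. Mouse 3 lay outside the range of the +/+ mice for 17 of the 21, or 81%, beside 76.7%. The difference between the channel groups was not tested.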

How the data were processed

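RNA from the hippocampus of 6 mice was hybridized to 1-colour Affymetrix arrays, 1 per mouse, with 3 Dp(11)17/+ and 3 +/+ mice. The deposited values are log2 signals per probe set, made by the authors with RMA, per the submitters' processing notes. No RMA version is stated in the labels. They were used as deposited, with no pseudocount or filter.

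After removal of 64 control probe sets, 45037 were tested with limma 3.58.1 in R 4.3.3 (lmFit and eBayes, no covariate, two-sided, Benjamini-Hochberg over all probe sets, threshold 0.05). Genes, 18193 in all, came from probe sets with 1 symbol in the platform annotation, and chromosomes from a RefSeq gene table of GRCm38.p6, in which all 81 potassium channel genes were found. The fit was tested on simulated data. There are no counts behind array signals, so the precision is limited by the number of arrays. Each limma p-value sets the group difference against a standard error. That error comes from the gene's spread between these mice, drawn toward a common value over all probe sets.

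The members, the gene lists and the tests were chosen with earlier results of these data known. By rule, values were given for the 25 genes of smallest unadjusted p, the 10 of highest mean and the brightest of each family. The rule also took the 3 farthest above and below the +/+ mean in each Dp(11)17/+ mouse, and 3 per pathway list by unadjusted p. Other members are given in the account of their family by their level, and many also by fold change or by the signals of mice. Alternatives were filters on dim probe sets, other normalizations and variance models, other probe set choices, other floors and thresholds, and mice left out. Marker lists for astrocytes, oligodendrocytes, striatum, thalamus and habenula, CA1 and dentate gyrus are printed where they stand beside a result.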

Additional observations from a re-analysis of the deposited data

How the results depend on the processing

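Limma called 0 of the 81 potassium channel genes under each alternative that gave a test, the threshold of 0.1 included. The number at an unadjusted p under 0.05, which was 0 with all mice, was 4 with array weights (Kcnd1, Kcnk6, Kcnq1ot1 and Kcns3), or 4.94% against 4.52% of all genes in the same fit. It was 1, or 1.23%, after centring on array medians (Kcns3), with the mean over a gene's probe sets (Kcnma1) and with the probe set of the largest variance (Kcnj1), against 3.31%, 2.76% and 3.57% of all genes. With 1 mouse left out it ran from 0 to 16, with 16 without Dp(11)17/+ mouse 2. The number of genes whose groups did not overlap, 1 with all mice, was 0 among probe sets with a mean of 6 or more, 3 after centring, 2 with cyclic loess, 2 with the mean over probe sets, 2 with the probe set of the largest variance, and 3 to 20 with 1 mouse left out. All genes gave 9.29%, 8.72%, 8.23%, 7.82% and 7.6% in the first 5 of these settings, and 15.5% to 24.9% with 1 mouse left out. The count of 20 came without Dp(11)17/+ mouse 2, and is 24.7% of the 81 genes against 24.9% of all genes. The median log2 fold change was 0.041 over the 30 potassium channel genes left by the filter at 6. For these 30 genes it was 0.041 in the main fit as well. Over the 81 genes it was -0.041 without Dp(11)17/+ mouse 3 and -0.024 with Dp(11)17/+ mouse 2 as the only duplication mouse. The sign of the fold change turned in at least 1 of 17 alternatives for 62 of the 81 genes and held in all that could be computed for 19, Kcnma1, Kcnk2, Kcnd3, Kcns3 and Kcnq1ot1 among them. Turned signs were not counted over all genes, and the cause of these shifts was not tested. No paired analysis was possible because the labels give no numbers shared between the groups.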
